A study of Mus musculus with 16 samples.

Results

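The matrix metalloproteases (gene names Mmp), the ADAMTS proteases (Adamts) and the tissue inhibitors of metalloproteases (Timp) were described in mouse kidney after rhabdomyolysis-induced acute kidney injury and after tubular deletion of Vhl. Genes were taken by symbol, each represented by its brightest row on the array (mean of 16 arrays). This gave 44 genes (22 Mmp, 18 Adamts and 4 Timp) of the 19938 genes tested. Each of the 16 arrays held bulk kidney RNA from a labelled biological replicate. All mice came from a transgenic line in which doxycycline induces loss of Vhl in renal tubules through a Pax8-rtTA driver, so other kidney cells are meant to keep the gene. The Control group (n = 3) was untreated. The VHL-KO group (n = 3) received subcutaneous doxycycline at 0.1 mg per 10 g of weight, 4 days before the kidneys were taken. The AKI group (n = 5) was injected in the hind limb with 50% glycerol at 0.05 ml per 10 g, which breaks down muscle and thereby injures the kidney, and had no drinking water during the preceding 20 h and the following 24 h. The VHL-KO/AKI group (n = 5) received both treatments. No group received doxycycline without the transgenes, or water withdrawal without glycerol, and age and sex are not stated for each animal.

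Matrix metalloproteases are zinc enzymes, made as inactive precursors, that cleave collagens, basement membrane proteins, growth factors and cell surface proteins. ADAMTS proteases are secreted relatives with thrombospondin repeats, and their best known substrates are proteoglycans such as versican and aggrecan, procollagens and von Willebrand factor. TIMPs bind the active site of these enzymes and block it, Timp3 being the TIMP that also stays bound to the matrix and inhibits several ADAMTS proteases. In the kidney they are studied for their part in basement membrane turnover, leukocyte entry and fibrosis after injury. Vhl encodes the protein that marks hypoxia-inducible factor (HIF) for destruction, so its loss stabilises HIF.

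Values are deposited log2 levels, which were compared within a gene and never between genes, since probes differ in brightness. A gene was called where its limma adjusted p was under 0.05 over all 19938 genes, and "rose" and "fell" refer to called genes. Vhl itself lay between 7.03 and 7.10 in Control, between 6.62 and 6.70 in VHL-KO, between 7.01 and 7.36 in AKI and between 6.35 and 6.66 in VHL-KO/AKI arrays. In bulk tissue a change in the number of cells of a type and a change in RNA per cell cannot be told apart. The X-linked transcript Xist ranged from 10.23 to 11.47 over the 6 arrays without injury and from 4.16 to 5.08 over the 10 with it, so injury and the sex-linked signal cannot be told apart. Control replicate 3 had a mean level of 7.43 over 3 Y-linked genes, against 4.81 to 5.01 in the other 5 uninjured arrays and 7.77 to 8.26 in the injured ones. Without it, 11 of the 44 genes were called in AKI against Control, against 22.7% of all genes. Replicate 4 of the AKI group stood apart, with the tubular injury marker Havcr1 at 9.30 against 12.2 to 13.1 in the other 4 AKI arrays. It lay outside the range of the other AKI arrays for 9 of the 15 genes given array by array here, and for 8 of those 9 it was displaced in the direction of the Control mean, past it for Mmp2 and Timp2; the exception was Adamts1. For Mmp7, given in addition, it was also outside that range, on the Control side.

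The shares of the 44 genes called in AKI against Control and in VHL-KO against Control were near those of all genes, so the values below are read gene by gene. Of the 44 genes, the inhibitor Timp1 and the proteases Adamts1 and Adamts4 had the largest rises and Adamts5 the largest fall in AKI against Control. In AKI against Control, 12 of the 44 genes were called, or 27.3%, where 28.1% of all genes were called. The 7 that rose, where 13.2% of all genes did, were Timp1, Adamts1, Adamts4, Mmp10, Mmp8, Mmp19 and Timp4. The 5 that fell, where 14.9% of all genes did, were Adamts5, Mmp13, Timp3, Mmp11 and Mmp23. In VHL-KO/AKI against VHL-KO, 11 genes were called, or 25%, against 13.6% of all genes. Of these, 6 rose (Timp1, Mmp19, Timp4, Adamts1, Adamts4 and Adamts18), against 4.66% of all genes, and 5 fell (Mmp13, Mmp11, Mmp2, Adamts5 and Adamts10), against 8.91%. In VHL-KO/AKI against AKI, 3 genes were called, or 6.82%, against 3.88% of all genes: Adamts5 and Timp4 were higher and Adamts1 was lower with the deletion, against 2.48% of all genes higher and 1.4% lower. In VHL-KO against Control, 0 of 44 genes were called by limma, against 0.527% of all genes (0.476% higher and 0.0502% lower), and 3 of the 44 had an unadjusted p under 0.05. The arrays of the compared groups did not overlap for 9 genes that were higher and 5 that were lower in AKI than in Control, against 13.5% and 13.8% of all genes (27.3% in all). They did not overlap for 8 genes higher and 8 lower in VHL-KO/AKI than in VHL-KO, against 9.42% and 14.9% of all genes (24.3% in all). Between VHL-KO/AKI and AKI this held for 1 gene higher and 1 lower, against 2.19% and 1.58% of all genes (3.78% in all). The median change over the 44 genes was 0.071 in AKI against Control, where it was 0.021 over all genes, and 0.047 in VHL-KO/AKI against VHL-KO, where it was -0.009. It was -0.027 in VHL-KO/AKI against AKI, where all genes had -0.012, and -0.006 in VHL-KO against Control, where they had 0.022. When a covariate for the sex-linked signal was added, 0 of 44 genes stayed called in either injury comparison, and 0 of all genes in AKI against Control. The median standard error of AKI against Control over all genes rose from 0.101 to 0.433 in that fit.

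**Figure D1:**
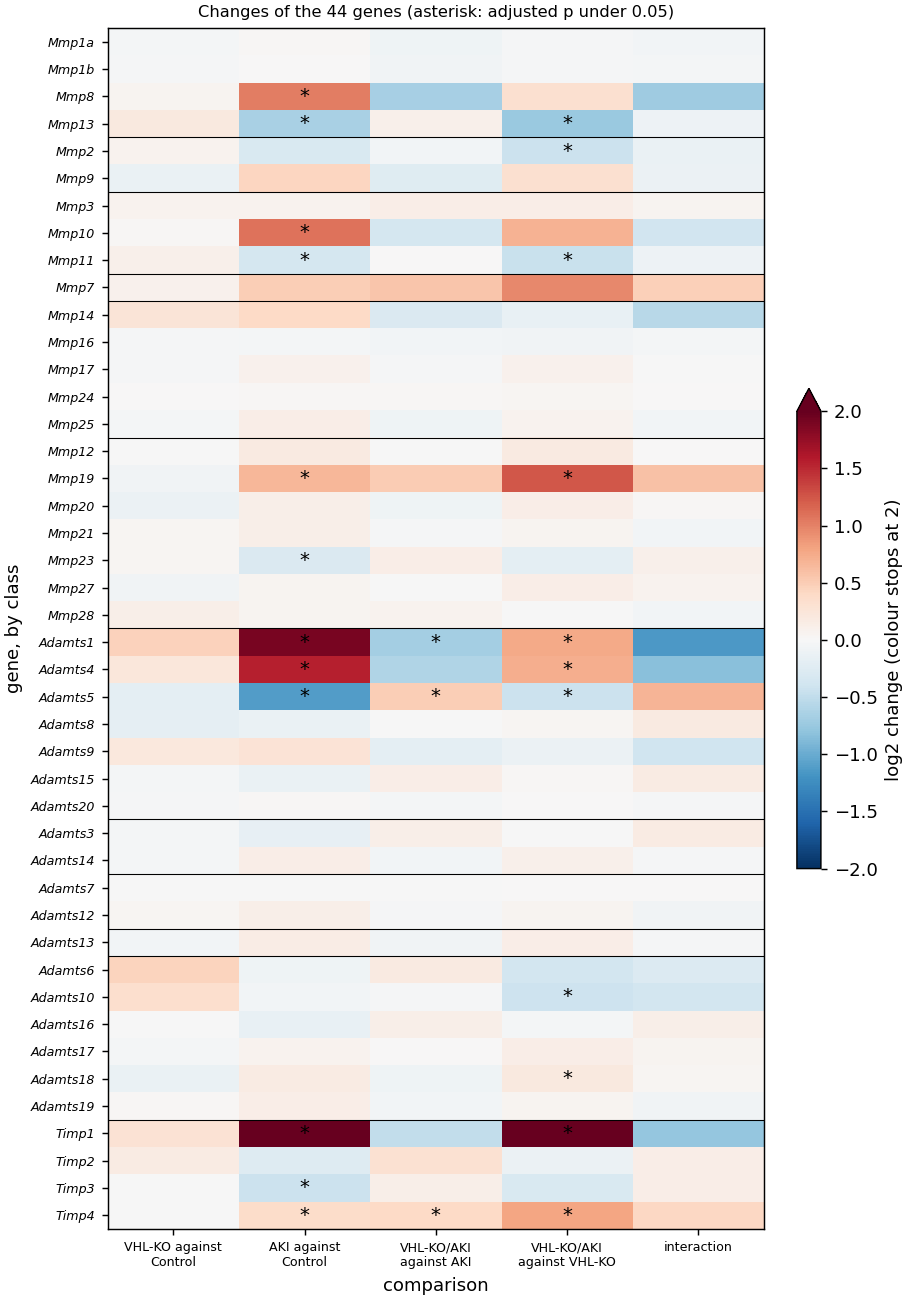
Heat map of the log2 change of each of the 44 genes (rows, by class) in the 4 pairwise comparisons and the interaction (columns), red for higher and blue for lower, with an asterisk at an adjusted p under 0.05 and the colour ending at a change of 2. The column of AKI against Control runs from Timp1 at 3.53 to Adamts5 at -1.11, and the columns of VHL-KO against Control and the interaction hold no asterisk.

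Of the inhibitors, Timp1 and Timp4 rose with injury in both injury comparisons, Timp3 fell in AKI against Control, and Timp2 passed no test. Timp1, a secreted inhibitor of most matrix metalloproteases that is induced in many injured tissues, lay at 5.50, 5.58 and 5.49 in Control, at 6.11, 5.996 and 5.31 in VHL-KO, at 10.36, 9.66, 8.95, 6.18 and 10.10 in AKI and at 8.14, 8.95, 7.44, 9.03 and 9.20 in VHL-KO/AKI arrays, in replicate order. All 10 injured arrays lay above all 6 uninjured arrays, AKI replicate 4 being the lowest of them at 6.18. The group means were 5.52 ± 0.048 in Control, 5.80 ± 0.43 in VHL-KO, 9.05 ± 1.69 in AKI and 8.55 ± 0.74 in VHL-KO/AKI (SD, n = 3, 3, 5 and 5). The difference of AKI from Control was 3.53 (SE 0.71, 95% interval 2.01 to 5.04, adjusted p = 0.00191), an 11.5-fold higher level. VHL-KO/AKI lay 2.75 above VHL-KO (SE 0.71, adjusted p = 0.0189), a call lost without any 1 of VHL-KO replicates 2 and 3 (changes of 2.50 to 2.84, adjusted p = 0.0509 to 0.083). VHL-KO/AKI differed from AKI by -0.50 (95% interval -1.81 to 0.82, adjusted p = 0.736), which did not pass. Without AKI replicate 4 that difference was -1.21 (adjusted p = 0.0327), and the injury difference was 4.24 (adjusted p = 2.19e-06).

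Timp4, an inhibitor best known from heart and vessels, lay at 5.89, 5.95 and 5.95 in Control, at 5.79, 5.94 and 6.02 in VHL-KO, at 6.27, 6.49, 6.35, 6.20 and 6.18 in AKI and at 6.30, 6.61, 6.85, 6.89 and 6.86 in VHL-KO/AKI arrays. The injured arrays all lay above the uninjured ones, and those with the deletion reached furthest. It rose by 0.37 in AKI against Control (SE 0.12, adjusted p = 0.0294) and by 0.78 in VHL-KO/AKI against VHL-KO (SE 0.12, adjusted p = 0.00068). VHL-KO/AKI was 0.40 above AKI (SE 0.10, adjusted p = 0.0418), although the arrays of these groups overlapped and the call was lost when each array was centred on its median. The call in AKI against Control was lost without any 1 of Control replicates 1, 2 and 3 and AKI replicates 2 and 3 (changes of 0.32 to 0.38, adjusted p = 0.0562 to 0.096). That of VHL-KO/AKI against AKI was kept without AKI replicate 2 or 4 or VHL-KO/AKI replicate 1, and lost without any other single array (changes of 0.36 to 0.43, adjusted p = 0.0512 to 0.12).

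Timp3, the matrix-bound inhibitor, lay at 12.94, 12.97 and 12.995 in Control, at 12.91, 12.96 and 13.01 in VHL-KO, at 12.42, 12.58, 12.45, 12.96 and 12.28 in AKI and at 12.71, 12.64, 12.67, 12.70 and 12.59 in VHL-KO/AKI arrays. Of the AKI arrays, 4 lay below every uninjured array, and replicate 4, at 12.96, lay among them. It fell by 0.43 in AKI against Control (SE 0.11, adjusted p = 0.0086). All 5 VHL-KO/AKI arrays also lay below all 3 VHL-KO arrays, with a difference of -0.30 (adjusted p = 0.0867) that did not pass. Timp2, a broadly expressed inhibitor that also takes part in the activation of Mmp2, lay at 8.62, 8.52 and 8.59 in Control, at 8.85, 8.57 and 8.81 in VHL-KO, at 8.09, 8.54, 8.10, 8.87 and 8.05 in AKI and at 8.41, 8.69, 8.84, 8.45 and 8.75 in VHL-KO/AKI arrays. Its AKI arrays were spread from 8.05 to 8.87, wider than any other group, and no comparison passed over 16 arrays. Without AKI replicate 4, Timp2 fell by 0.39 in AKI against Control (adjusted p = 0.0273) and was 0.43 higher in VHL-KO/AKI than in AKI (adjusted p = 0.0214).

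**Figure D2:**
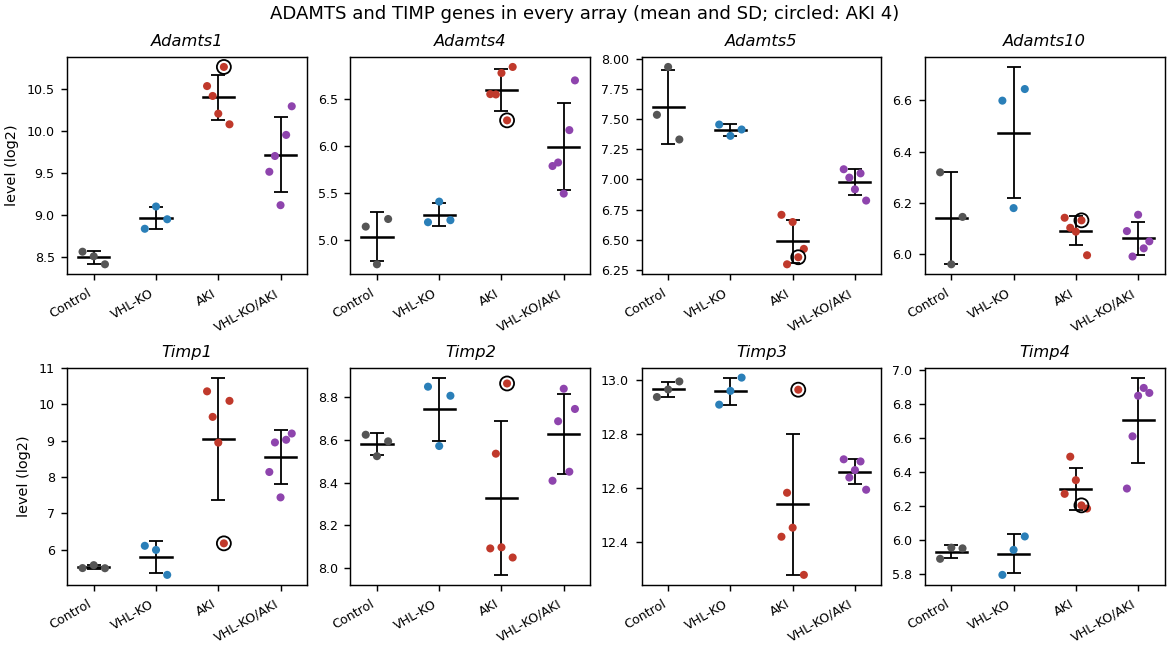
Log2 level of 4 ADAMTS and 4 TIMP genes in every array, by group, with group mean and SD bars and AKI replicate 4 circled. Timp1 was near 5.5 in Control and lay between 8.95 and 10.36 in 4 AKI arrays, with the circled array at 6.18, whereas Adamts5 was lowest in AKI and intermediate in VHL-KO/AKI.

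Among the collagenases, which cut fibrillar collagen, Mmp8 rose and Mmp13 fell with injury, while Mmp1a and Mmp1b passed no test. Mmp8, the collagenase stored in neutrophil granules, lay at 4.09, 4.03 and 4.06 in Control, at 3.95, 4.24 and 4.14 in VHL-KO, at 5.31, 4.77, 5.42, 5.23 and 4.69 in AKI and at 4.04, 4.27, 4.13, 4.73 and 4.95 in VHL-KO/AKI arrays. Every AKI array lay above every Control array, and the VHL-KO/AKI arrays ran from the VHL-KO range up into the AKI range. In every array Mmp8 lay under the lowest of the 16 array medians, 5.92, and no detection calls were used. The difference of AKI from Control was 1.02 (SE 0.20, adjusted p = 0.00171), or 2.03-fold. VHL-KO/AKI differed from VHL-KO by 0.31 (adjusted p = 0.356) and from AKI by -0.66 (SE 0.18, adjusted p = 0.0508), neither of which passed. The latter was called without any 1 of AKI replicates 2, 4 and 5 and VHL-KO/AKI replicate 5 (changes of -0.79 to -0.62, adjusted p = 0.01 to 0.0475). Mmp13, the main interstitial collagenase of rodents, lay at 5.06, 5.76 and 5.36 in Control, at 5.56, 5.30 and 5.92 in VHL-KO, at 4.98, 4.53, 4.69, 4.59 and 4.94 in AKI and at 4.97, 4.94, 5.02, 4.83 and 4.47 in VHL-KO/AKI arrays. All injured arrays lay below all uninjured ones. Mmp13 lay at the lowest of the 16 array medians, 5.92, in VHL-KO replicate 3 and under it in every other array. It fell by 0.65 in AKI against Control (SE 0.17, adjusted p = 0.0116) and by 0.75 in VHL-KO/AKI against VHL-KO (SE 0.17, adjusted p = 0.0105). The first call was lost without Control replicate 2 (-0.46, adjusted p = 0.085) and the second without VHL-KO replicate 3 (-0.58, adjusted p = 0.0701).

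The gelatinases cleave denatured collagen and collagen IV of basement membranes. Mmp2, a gelatinase of stromal cells, lay at 5.70, 6.03 and 5.66 in Control, at 5.93, 6.04 and 5.64 in VHL-KO, at 5.37, 5.68, 5.36, 5.80 and 5.26 in AKI and at 5.42, 5.51, 5.39, 5.29 and 5.55 in VHL-KO/AKI arrays. It fell by 0.44 in VHL-KO/AKI against VHL-KO (SE 0.13, adjusted p = 0.0383), where the groups did not overlap, and the call was lost after centring each array and without any 1 of VHL-KO replicates 1 and 2 and VHL-KO/AKI replicates 1, 2, 3 and 4 (changes of -0.46 to -0.35, adjusted p = 0.0544 to 0.162). In AKI against Control the difference was -0.31 (adjusted p = 0.0978), with the AKI replicates 2 and 4 inside the Control range. Mmp9, the gelatinase of neutrophils and macrophages, was not called in any comparison over 16 arrays, with a lowest adjusted p of 0.0618. It was called in AKI against Control without Control replicate 3 (0.53, adjusted p = 0.0496), AKI replicate 2 (0.49, adjusted p = 0.0435) or AKI replicate 5 (0.49, adjusted p = 0.0407). Its AKI arrays lay at 5.57, 4.85, 4.89, 5.31 and 4.82, against 4.46, 4.65 and 4.88 in Control, so that the groups overlapped.

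Of the stromelysins, Mmp10 rose, Mmp11 fell and Mmp3 passed no test. Mmp10, stromelysin-2, is an epithelial protease that cleaves proteoglycans and activates other matrix metalloproteases. It lay at 5.81, 5.70 and 5.68 in Control, at 5.64, 5.98 and 5.67 in VHL-KO, at 6.82, 6.62, 6.93, 5.96 and 7.77 in AKI and at 6.21, 6.77, 5.97, 6.61 and 6.76 in VHL-KO/AKI arrays. All 5 AKI arrays lay above the 3 Control arrays, replicate 5 being the highest and replicate 4 the lowest. The difference was 1.09 (SE 0.29, adjusted p = 0.0108), or 2.13-fold, and that of VHL-KO/AKI from VHL-KO was 0.70 (adjusted p = 0.13), which did not pass. Mmp11, stromelysin-3, is activated inside the cell by furin. It lay at 5.97, 5.71 and 5.86 in Control, at 6.23, 5.66 and 5.96 in VHL-KO, at 5.53, 5.72, 5.45, 5.40 and 5.38 in AKI and at 5.47, 5.49, 5.55, 5.41 and 5.58 in VHL-KO/AKI arrays. It fell by 0.35 in AKI against Control (SE 0.11, adjusted p = 0.0281), with AKI replicate 2 inside the Control range, and by 0.45 in VHL-KO/AKI against VHL-KO (SE 0.11, adjusted p = 0.0138), with no overlap. The first call was lost without any 1 of Control replicates 1 and 3 and AKI replicates 3 and 5 (changes of -0.34 to -0.28, adjusted p = 0.0538 to 0.133). The second was lost without any 1 of VHL-KO replicates 1 and 3 (changes of -0.45 to -0.31, adjusted p = 0.0504 to 0.0862).

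Mmp19, a protease of basement membrane proteins, lay at 4.998, 4.87 and 5.03 in Control, at 4.79, 4.91 and 4.96 in VHL-KO, at 6.24, 5.71, 5.63, 5.09 and 5.43 in AKI and at 6.002, 6.16, 5.62, 6.49 and 6.40 in VHL-KO/AKI arrays. All injured arrays lay above all uninjured ones, and AKI replicate 4, at 5.09, was close to the Control maximum of 5.03. It rose by 0.66 in AKI against Control (SE 0.21, adjusted p = 0.0306) and by 1.25 in VHL-KO/AKI against VHL-KO (SE 0.21, adjusted p = 0.0016), or 2.37-fold. The call in AKI against Control was lost without any 1 of Control replicates 1, 2 and 3 and AKI replicates 1, 2 and 3 (changes of 0.50 to 0.69, adjusted p = 0.0521 to 0.103). VHL-KO/AKI lay 0.51 above AKI (adjusted p = 0.142), which passed without AKI replicate 1 (0.67, adjusted p = 0.0433). Mmp23, a protease held in the membrane by its amino-terminal end, lay at 6.39, 6.37 and 6.26 in Control, at 6.37, 6.33 and 6.45 in VHL-KO, at 6.09, 6.10, 5.91, 6.16 and 6.02 in AKI and at 6.22, 6.25, 6.17, 6.12 and 6.20 in VHL-KO/AKI arrays. It fell by 0.28 in AKI against Control (SE 0.063, adjusted p = 0.00337), with no overlap. The VHL-KO/AKI arrays also lay below all uninjured arrays, at -0.19 relative to VHL-KO (adjusted p = 0.059), which did not pass.

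**Figure D3:**
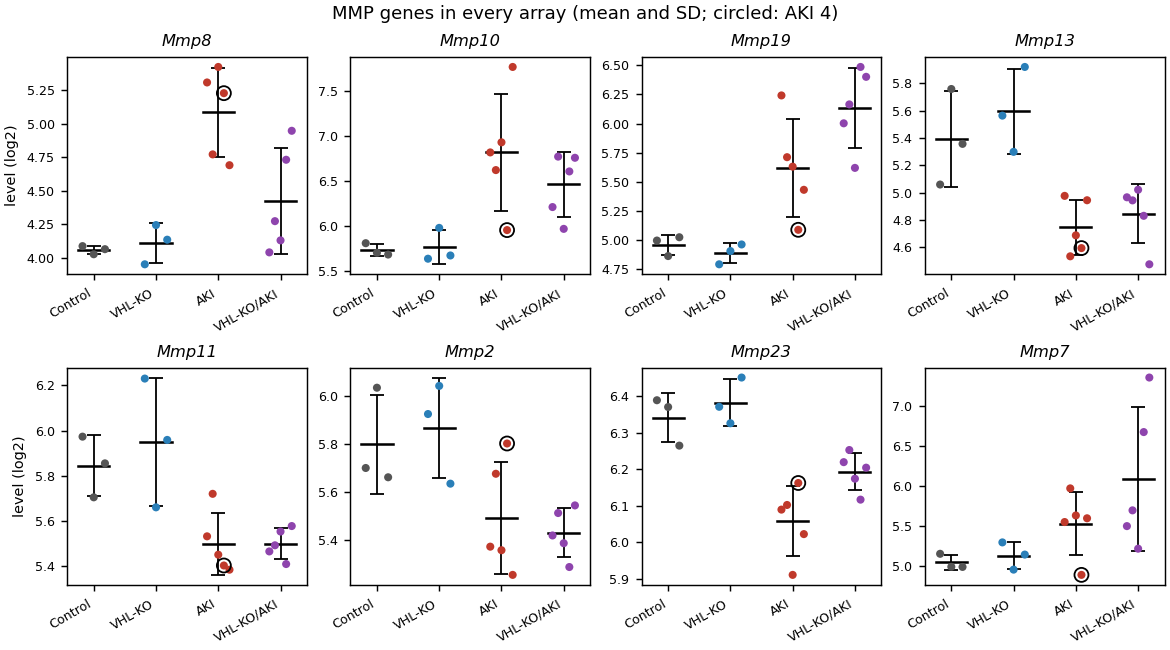
Log2 level of 8 matrix metalloprotease genes in every array, by group, with group mean and SD bars and AKI replicate 4 circled. Mmp10 and Mmp8 were higher in AKI than in Control, by 1.09 and 1.02, and Mmp13 was lower in both injured groups.

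Of the Mmp genes, 10 lie next to each other on mouse chromosome 9, in the order Mmp13, Mmp12, Mmp1b, Mmp3, Mmp1a, Mmp10, Mmp8, Mmp27, Mmp20 and Mmp7. Those called did not move together with injury: Mmp10 and Mmp8 rose and Mmp13 fell in AKI against Control. The other 7 passed no test there. Of these 7, Mmp12, Mmp1b, Mmp3, Mmp1a, Mmp27 and Mmp20 lay under the lowest array median, 5.92, in every array. No detection calls were used, so for them a lack of response and a lack of detection cannot be told apart. Promoters of this row of genes are shown because several matrix metalloprotease genes are textbook targets of AP-1, the dimer of Fos and Jun proteins. A promoter entry was found for 30 of the 44 genes (33 promoters, RefSeq, build GRCm38.p6), and the 250 bases before each start site were searched on both strands. The AP-1 motif TGANTCA occurred in 8 of the 33 promoters, or 24.2%, against 6.75% of all 32851 promoters of the same length. All 8 belonged to the chromosome 9 genes (Mmp13, Mmp12, Mmp1b, Mmp3, Mmp1a, Mmp10, Mmp20 and Mmp7), at 29 to 95 bases before the start. Among the promoters searched, 0 matches lay outside that row of genes. The called genes Adamts4, Adamts5, Adamts10, Mmp2 and Mmp19 had no promoter entry and were not searched. Of the 8 genes with a match, Mmp10 rose, Mmp13 fell and 6 passed no test in AKI against Control, while Mmp8, which rose, had no match in this window. Of those 6, all but Mmp7 lay under 5.92 in every array, so their lack of a call does not show that they failed to respond. A match is a description of letters and not a measured binding site. The 150 bases before the start site are given below for 2 Mmp genes that rose, 1 that fell and 1 that passed no test, with the AP-1 match in capitals. The coordinates are chr9:7502192-7502341, plus strand for Mmp10, chr9:7558279-7558428, plus strand for Mmp8, chr9:7272364-7272513, plus strand for Mmp13 and chr9:7445672-7445821, plus strand for Mmp3.
Mmp10: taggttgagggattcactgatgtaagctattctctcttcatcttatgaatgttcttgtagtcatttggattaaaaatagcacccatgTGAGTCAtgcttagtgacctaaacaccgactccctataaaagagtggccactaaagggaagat
Mmp8: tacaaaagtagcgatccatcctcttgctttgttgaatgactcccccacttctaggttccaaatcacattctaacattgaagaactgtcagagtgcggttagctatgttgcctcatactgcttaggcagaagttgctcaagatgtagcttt
Mmp13: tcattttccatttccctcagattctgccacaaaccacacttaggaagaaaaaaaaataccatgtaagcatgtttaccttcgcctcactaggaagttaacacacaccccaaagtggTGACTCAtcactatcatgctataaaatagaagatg
Mmp3: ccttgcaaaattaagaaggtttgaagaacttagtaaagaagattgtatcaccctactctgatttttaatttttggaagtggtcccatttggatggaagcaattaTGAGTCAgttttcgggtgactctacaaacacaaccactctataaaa

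The matches in Mmp10 (63 to 57 bases before the start), Mmp13 (35 to 29) and Mmp3 (46 to 40) all lie within 63 bases of the start, in genes that rose, fell and passed no test. The last, Mmp3, lay under the lowest array median in every array. The same stretch is also given for the 2 genes with the largest rises, Timp1 (chrX:20870016-20870165, plus strand) and Adamts1 (chr16:85803114-85803263, minus strand). Neither stretch holds TGANTCA. Sites further away and other forms of the motif were not searched, and the part of AP-1 in any of these changes was not tested.
Timp1: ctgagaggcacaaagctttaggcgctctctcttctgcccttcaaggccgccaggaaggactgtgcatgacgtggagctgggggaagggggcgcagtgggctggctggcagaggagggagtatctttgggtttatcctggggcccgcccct
Adamts1: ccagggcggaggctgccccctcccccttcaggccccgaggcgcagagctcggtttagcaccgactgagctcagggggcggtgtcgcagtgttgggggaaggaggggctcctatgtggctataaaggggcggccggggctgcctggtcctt

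The core of the hypoxia response element, searched as ACGTG or GCGTG, occurred in 14 of the 33 promoters, or 42.4%, against 38.6% of all promoters. Timp1 held ACGTG at 82 to 78 bases and GCGTG at 206 to 202 bases before its start, and Adamts1 held GCGTG at 158 to 154 bases. Neither was called in VHL-KO against Control, where Timp1 lay at 0.28 (adjusted p = 0.97) and Adamts1 at 0.47 (adjusted p = 0.626). TATAAA occurred in 9 of the 33 promoters, or 27.3%, against 12.4% of all promoters.

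The ADAMTS proteases that cleave proteoglycans held the largest changes of that family, and they went in opposite directions. Adamts1, which cleaves versican and aggrecan and is needed for normal kidney development in mice, lay at 8.57, 8.51 and 8.42 in Control, at 8.84, 9.10 and 8.95 in VHL-KO, at 10.53, 10.42, 10.21, 10.76 and 10.08 in AKI and at 9.52, 9.70, 9.12, 9.95 and 10.29 in VHL-KO/AKI arrays. All injured arrays were above all uninjured ones, and all VHL-KO arrays were above all Control arrays. The difference of AKI from Control was 1.90 (SE 0.20, adjusted p = 2.08e-05), or 3.74-fold, and AKI replicate 4, at 10.76, was the highest of the AKI arrays. VHL-KO/AKI was 0.75 above VHL-KO (SE 0.20, adjusted p = 0.024), a call lost without any 1 of VHL-KO replicates 1 and 3 and VHL-KO/AKI replicate 4 (changes of 0.69 to 0.75, adjusted p = 0.0578 to 0.0948). Relative to AKI, it was lower by 0.68 (SE 0.18, adjusted p = 0.0463), and VHL-KO/AKI replicate 5, at 10.29, lay inside the AKI range. That call was kept without AKI replicate 4 or VHL-KO/AKI replicate 5 and lost without any other single array (changes of -0.76 to -0.53, adjusted p = 0.0541 to 0.126). Adamts4, an aggrecan-cleaving relative, lay at 5.15, 4.75 and 5.23 in Control, at 5.19, 5.41 and 5.21 in VHL-KO, at 6.55, 6.55, 6.78, 6.27 and 6.84 in AKI and at 5.79, 5.83, 5.50, 6.17 and 6.70 in VHL-KO/AKI arrays. It rose by 1.56 in AKI against Control (SE 0.21, adjusted p = 0.000117), or 2.94-fold, and by 0.72 in VHL-KO/AKI against VHL-KO (SE 0.21, adjusted p = 0.0347). The latter call was lost without any 1 of VHL-KO replicates 1, 2 and 3 and VHL-KO/AKI replicate 4 (changes of 0.68 to 0.79, adjusted p = 0.0636 to 0.113). VHL-KO/AKI differed from AKI by -0.60 (adjusted p = 0.083), which passed without AKI replicate 4 (-0.68, adjusted p = 0.0288) and without VHL-KO/AKI replicate 5 (-0.78, adjusted p = 0.00551).

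Adamts5, also an aggrecan- and versican-cleaving enzyme, lies next to Adamts1 on chromosome 16 and moved the other way in each comparison in which both were called. It lay at 7.53, 7.93 and 7.33 in Control, at 7.45, 7.36 and 7.41 in VHL-KO, at 6.71, 6.30, 6.65, 6.36 and 6.42 in AKI and at 7.08, 7.01, 6.92, 7.05 and 6.82 in VHL-KO/AKI arrays. The AKI arrays were the lowest, the VHL-KO/AKI arrays lay above all of them and below all uninjured arrays. It fell by 1.11 in AKI against Control (SE 0.12, adjusted p = 2.34e-05) and by 0.43 in VHL-KO/AKI against VHL-KO (SE 0.12, adjusted p = 0.029), the latter call being lost after centring each array and without any 1 of VHL-KO replicates 1, 2 and 3 and VHL-KO/AKI replicates 3 and 5 (changes of -0.46 to -0.39, adjusted p = 0.0523 to 0.0975). It was 0.49 higher in VHL-KO/AKI than in AKI (SE 0.11, adjusted p = 0.022), a call lost without any 1 of AKI replicate 5 and VHL-KO/AKI replicates 1 and 2 (changes of 0.47 to 0.48, adjusted p = 0.0541 to 0.0664). Adamts10, which binds fibrillin microfibrils, lay at 6.32, 5.96 and 6.15 in Control, at 6.60, 6.18 and 6.64 in VHL-KO, at 6.14, 6.10, 6.09, 6.13 and 5.996 in AKI and at 6.09, 5.99, 6.15, 6.02 and 6.05 in VHL-KO/AKI arrays. It fell by 0.41 in VHL-KO/AKI against VHL-KO (SE 0.098, adjusted p = 0.0121) with no overlap, a call lost without any 1 of VHL-KO replicates 1 and 3 (changes of -0.35 to -0.33, adjusted p = 0.0687 to 0.0766), while AKI differed from Control by -0.050 (adjusted p = 0.762). In VHL-KO against Control it lay at 0.33 (adjusted p = 0.313), the groups overlapping through VHL-KO replicate 2. Adamts18 rose by 0.20 in VHL-KO/AKI against VHL-KO (adjusted p = 0.0402), a call lost without any 1 of VHL-KO replicates 1 and 3, AKI replicate 1, VHL-KO/AKI replicates 1, 2, 3, 4 and 5 (changes of 0.17 to 0.21, adjusted p = 0.0505 to 0.155). In every array Adamts18 lay under the lowest of the 16 array medians, 5.92.

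The injury differences measured without and with the deletion share no arrays, but both tests use 1 estimate of the spread over all 16 arrays. Of the 12 genes called without it and the 11 called with it, 8 were called in both and all 8 had the same direction, which is 66.7% and 72.7% of the 2 lists. Over all genes, 1994 were called in both in the same direction, or 35.6% of 5600 and 73.7% of 2705. Mmp10, Mmp8, Timp3 and Mmp23 were called without the deletion and not with it, and Mmp2, Adamts10 and Adamts18 the other way round. Without AKI replicate 4, Mmp10 (0.70, adjusted p = 0.0431), Timp3 (-0.30, adjusted p = 0.0043) and Mmp23 (-0.19, adjusted p = 0.0401) were also called with the deletion, and Mmp2 (-0.38, adjusted p = 0.0226) without it. The changes with the deletion contain no AKI array, so they were the same in that fit, with smaller standard errors. Adamts18 was also called in AKI against Control without Control replicate 3 (0.22, adjusted p = 0.0277), Mmp23 with the deletion without AKI replicate 3 (adjusted p = 0.0393) and Mmp10 with the deletion without AKI replicate 5 (adjusted p = 0.0463). No gene's 2 injury differences were shown to be unequal: by limma, 0 of 44 genes were called for the interaction, where 0.01% of all genes (2 genes) were, and 6 of the 44 had an unadjusted p under 0.05. The interaction was -1.15 for Adamts1 (95% interval -1.77 to -0.53, adjusted p = 0.146), -0.84 for Adamts4 (0.281), -0.71 for Mmp8 (0.349) and 0.68 for Adamts5 (0.146), the values in parentheses after the first being adjusted p-values. That of Adamts1 was called without VHL-KO/AKI replicate 5 (-1.29, adjusted p = 0.0279). Against 11 genes called in VHL-KO/AKI against VHL-KO with all arrays, 4 were called without VHL-KO replicate 1 (8.8% of all genes), 7 without VHL-KO replicate 2 (9.27%), 3 without VHL-KO replicate 3 (8.44%) and 7 without VHL-KO/AKI replicate 4 (10% of all genes). Between 9 and 14 were called without any other single array, with 10.5% to 19.6% of all genes.

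**Figure D4:**
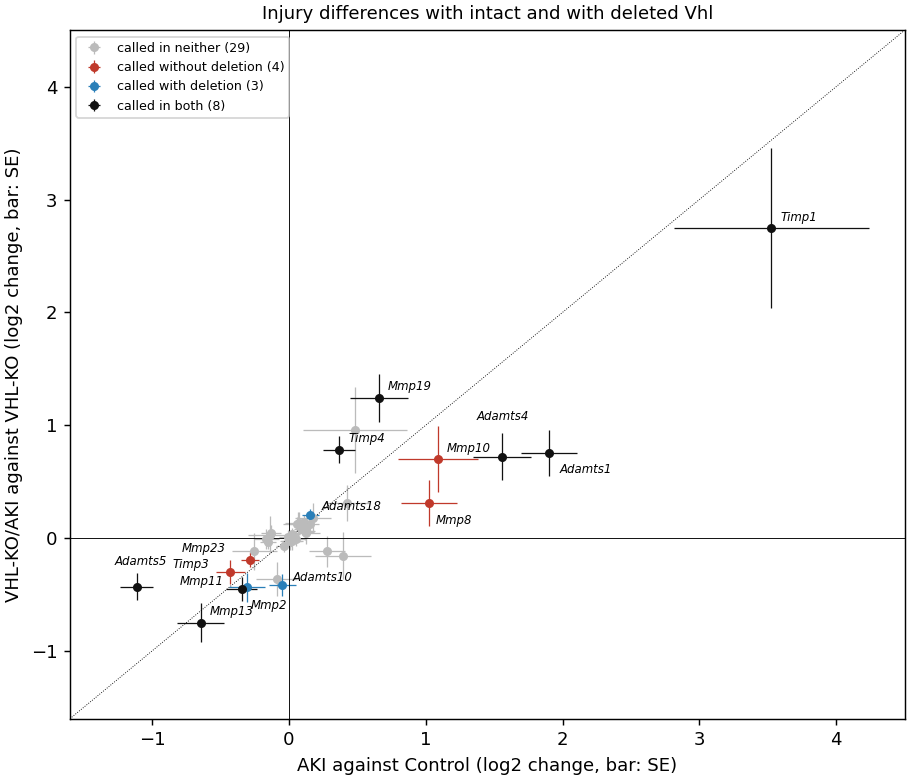
Log2 change of each of the 44 genes with injury in mice without the deletion (horizontal axis) and with it (vertical axis), with standard error bars and a line of equality. The 8 genes called in both have the same sign on both axes, and Adamts1, Adamts4 and Mmp8 lie below the line while Mmp19 and Timp4 lie above it.

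Within injured kidneys, Adamts5 and Timp4 were higher and Adamts1 was lower in VHL-KO/AKI than in AKI, with the limits of these calls given above. AKI arrays enter both this comparison and AKI against Control, so their values are given side by side, with the injury difference first: Adamts1 at 1.90 and -0.68, Adamts5 at -1.11 and 0.49, and Timp4 at 0.37 and 0.40. Without AKI replicate 4, 8 of the 44 genes were called, against 12% of all genes: Timp1, Adamts4, Mmp8 and Adamts1 were lower, and Adamts5, Timp2, Timp4 and Timp3 were higher with the deletion. The count was 0 without VHL-KO/AKI replicate 2, against 1.46% of all genes, and 1 (against 1.15% to 3.17% of all genes) without any of Control replicates 1 to 3, VHL-KO replicates 1 to 3, AKI replicates 3 and 5, or VHL-KO/AKI replicates 1, 3 and 4.

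With deletion of Vhl alone, 0 of the 44 genes were called by limma, near the share of all genes (0.527%), and 3 had an unadjusted p under 0.05. Of 10 listed HIF target genes, a check of the deletion, 7 rose in that comparison. The groups did not overlap for 5 of the 44 genes, 4 higher and 1 lower, against 11.8% and 5.33% of all genes (17.2% in all). The change lay at 0.47 for Adamts1 (95% interval -0.022 to 0.95), 0.45 for Adamts6 (0.083 to 0.81) and 0.33 for Adamts10 (0.098 to 0.57). The last was called without VHL-KO replicate 2, at 0.48 (adjusted p = 0.0304).

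The remaining 29 genes were called in no comparison over the 16 arrays, and for 23 of them the 4 group means lay within 0.25 of each other. In 22 of the 29, and in 24 of all 44 genes, every array lay under the lowest of the 16 array medians, 5.92. No detection calls were used here. The lowest adjusted p-values among them were those of Mmp9 (0.0618), Adamts16 (0.062) and Adamts14 (0.0735), the last an enzyme that trims procollagen. The 6 genes with group means further apart were Adamts6, Adamts9, Mmp14, Mmp7, Mmp9 and Timp2. Mmp14, a membrane-anchored protease that activates Mmp2, lay between 5.67 and 6.84 over the 16 arrays. Mmp7, matrilysin, an epithelial protease known from injured and fibrotic kidney, had the widest range of the 29 genes and is named here after its values were seen. It lay at 5.15, 4.99 and 4.98 in Control, at 5.29, 4.95 and 5.14 in VHL-KO, at 5.55, 5.97, 5.63, 4.88 and 5.59 in AKI and at 5.49, 5.69, 5.21, 6.67 and 7.35 in VHL-KO/AKI arrays. VHL-KO/AKI replicates 4 and 5 were the highest, the others lying at or below 5.97, and its lowest adjusted p was 0.111. Leaving out 1 array gave calls for 4 more of the 29, beside Mmp9 and Timp2. These were Adamts9 in AKI against Control without AKI replicate 2 (0.38, adjusted p = 0.0186) and Adamts16 there without VHL-KO/AKI replicate 3 (-0.15, adjusted p = 0.0377). The others, with injury on top of the deletion, were Adamts6 without AKI replicate 5 (-0.36, adjusted p = 0.0215) and Mmp7 without VHL-KO/AKI replicate 3 (1.18, adjusted p = 0.0438). Adamts3, Adamts9 and Adamts17 had several rows on the array (16, 6 and 5), and 0 of those rows were called in AKI against Control. Of the 16 rows of Adamts3, 1 that is not the row used here was called in VHL-KO/AKI against VHL-KO (-0.19, adjusted p = 0.0359).

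The proteins that control these enzymes were followed in a list of 17 activators, inhibitors and receptors. In AKI against Control 4 rose and 4 fell, or 47.1% of the list against 28.1% of all genes, with a median change of -0.011 where all genes had 0.021. The convertases Pcsk6 (-1.05, adjusted p = 0.0179) and Pcsk5 (-0.62, adjusted p = 0.0055), which activate some of these precursors, fell, and Adamtsl4, an ADAMTS-like protein without a protease domain, rose (0.88, adjusted p = 0.000385). A2m, the broad protease trap alpha-2-macroglobulin, was the only one of the 17 called in VHL-KO against Control (1.83, adjusted p = 0.00337). It was also the only one called in VHL-KO/AKI against AKI, where it was higher (1.12, adjusted p = 0.00709). Either call is 5.88% of the list, against 0.527% and 3.88% of all genes. In VHL-KO/AKI against VHL-KO, 2 of the 17 were called, or 11.8%, against 13.6% of all genes. These were A2m (-1.04) and Reck (-0.47), a membrane-bound inhibitor, which fell, with adjusted p = 0.00693 and 0.00704.

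Of 25 listed substrates, 10 rose and 3 fell in AKI against Control, or 52%, against 28.1% of all genes (13.2% higher and 14.9% lower), with a median change of 0.139 against 0.021 over all genes. The largest changes were those of Hbegf (2.31, adjusted p = 0.000186), a growth factor released by metalloproteases, Tnc (1.56, adjusted p = 0.0121), tenascin C, and Thbs1 (0.997, adjusted p = 0.0112), thrombospondin 1. With the deletion in injured kidneys the proteoglycan decorin, Dcn, was higher (0.69, adjusted p = 0.0153) and Hbegf (-1.21, adjusted p = 0.0334) and the cadherin Cdh1 (-0.49, adjusted p = 0.0427) were lower. Among 16 related metalloproteases, 1 rose and 3 fell in AKI against Control, or 25%, against 28.1% of all genes. Adam8 rose (1.16, adjusted p = 0.00115). Mep1b (-1.80, adjusted p = 0.00591), Mme (-1.61, adjusted p = 0.000206) and Ece1 (-0.64, adjusted p = 0.000968) fell. Mep1b and Mme are enzymes of the proximal tubule brush border, while Mep1a of the same list did not pass (-0.17, adjusted p = 0.304).

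Counts over marker lists of other cells are given beside those of all genes. Of all genes, 28.1% were called in AKI against Control (13.2% higher and 14.9% lower). The share was 13.6% in VHL-KO/AKI against VHL-KO and 3.88% in VHL-KO/AKI against AKI. Of 12 neutrophil markers, 7 rose and 0 fell in AKI against Control, led by Retnlg (2.11), Cxcr2 (1.83) and S100a9 (1.22), with a median change of 0.658, while the granule genes Mpo (0.088) and Elane (0.068) did not pass. The mean level of that list ran from 4.64 to 4.66 in Control, from 4.66 to 4.75 in VHL-KO, from 5.04 to 5.74 in AKI and from 4.70 to 5.20 in VHL-KO/AKI arrays, with AKI replicate 4 the highest. In VHL-KO/AKI against AKI, 2 of the 12 were lower (S100a9 at -1.07 and S100a8 at -0.55) and 10 did not pass. Mmp8, at -0.66, did not pass there either (adjusted p = 0.0508). The 12 AP-1 and injury response genes all rose in AKI against Control, their mean level running from 6.36 to 6.43 in Control, from 9.14 to 9.72 in AKI and from 8.27 to 9.12 in VHL-KO/AKI arrays. Of 10 proximal tubule markers 9 fell in AKI against Control, with mean levels from 12.31 to 12.38 in Control and from 10.45 to 11.92 in AKI arrays. Of the endothelial markers 3 of 9 fell in AKI against Control and 6 of 9 in VHL-KO/AKI against VHL-KO. All 9 were higher without overlap in VHL-KO than in Control, against 11.8% of all genes, with none called. Of 11 macrophage markers 2 rose and 2 fell (36.4% called) in AKI against Control, where 28.1% of all genes were called. The 10 fibroblast and smooth muscle markers gave 2 that rose and 2 that fell there (40% called). In that comparison 9 of 12 distal tubule and collecting duct markers fell (75%), and 1 of 5 podocyte markers rose and 2 fell (60%). Of 8 skeletal muscle genes 1 rose (12.5%). In VHL-KO/AKI against AKI, 4 of the 12 AP-1 and injury response genes and 2 of the 10 fibroblast and smooth muscle markers were lower. Of all genes, 1.4% were lower there and 2.48% higher. The 12 distal markers gave 2 that were higher, the 9 endothelial markers 1 and the 10 HIF target genes 7. The part of these cells in the changes of the protease and inhibitor genes was not tested.

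**Figure D5:**
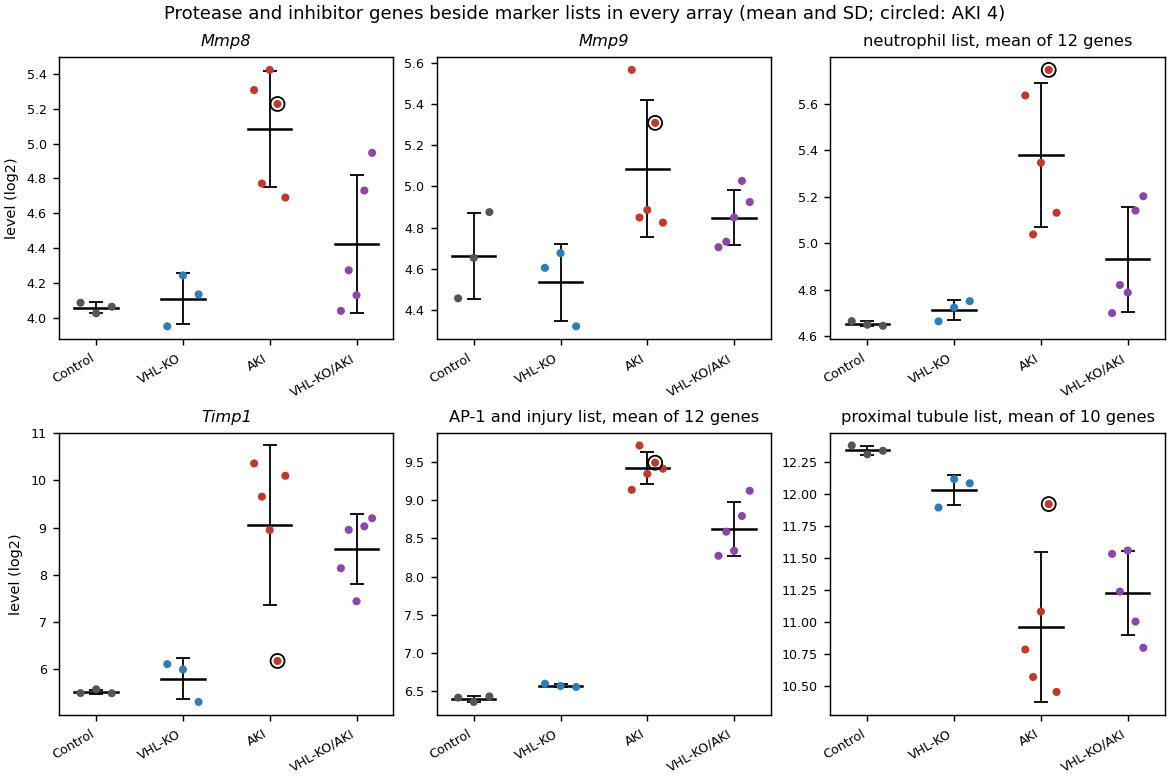
Log2 level of Mmp8, Mmp9 and Timp1 and the mean log2 level of the neutrophil, AP-1 and injury, and proximal tubule lists in each of the 16 arrays, by group, with group mean and SD bars and AKI replicate 4 circled. AKI replicate 4 had the highest neutrophil list level, 5.74, and a Timp1 level of 6.18, the lowest of the AKI arrays.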

How the data were processed

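RNA from mouse kidney was measured on whole-transcript arrays, 1 per replicate, in the 4 groups given by the sample titles. The values are log2 levels deposited by the authors; the submitters' processing notes name Partek 6.4 and RMA (background correction and probe summary), while order, settings and build are not stated there. They were used as deposited (array medians 5.92 to 6.03). Of 35556 rows, 21789 carried 1 gene symbol in the probe table, 1621 several and 12146 none; rows with 1 symbol were kept, 1 per gene (the highest mean over 16 arrays), which left 19938 genes. The number of arrays limits the precision.

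A limma 3.58.1 model (R 4.3.3) held 1 mean for each of the 4 groups, with 12 residual and 2.83 prior degrees of freedom. Tests were 2-sided, with Benjamini-Hochberg adjustment over all genes and calls at an adjusted p under 0.05. The interaction is the knockout difference with injury minus that without. The genes and the lists were chosen with earlier results of these data known, so counts over them are descriptions. Array-by-array values are given for the 14 called genes with the largest called change and for the 4 Timp genes; other called genes get a change and an adjusted p, genes not called get ranges (the 3 lowest adjusted p named), and other lists get up to 3 called genes. Genes given beyond this are Mmp7, Mmp14, Adamts6, Ece1, Mep1a, Mpo and Elane, chosen after their values were seen. Listed genes that did not match a tested gene are left out of the list counts. Promoters came from RefSeq (GRCm38.p6). Alternatives covered array scaling, a filter on dim genes, the samples fitted, array weights, the replicate number as a block, a sex-linked covariate and leaving out each array. The code was tested on simulated data.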

Additional observations from a re-analysis of the deposited data

How the results depend on the processing

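The 26 called changes of single genes were recomputed under each alternative, which gave 675 results in all. Of these results, 546 kept the direction and the call, 124 kept the direction and lost the call, and 5 reversed. Of the 26 changes, 0 kept direction and call under every alternative. Counts of called genes among the 44 are given here without the share of all genes, which also moved between settings. Without AKI replicate 4, 12% of all genes were called in VHL-KO/AKI against AKI, where 3.88% were with all arrays. For the interaction these shares were 3.11% and 0.01%. The counts below therefore do not show by themselves a shift particular to the 44 genes. The counts of called genes among the 44 ranged, when 1 array was left out, from 0 to 1 in VHL-KO against Control, from 9 to 14 in AKI against Control, from 0 to 8 in VHL-KO/AKI against AKI, from 3 to 14 in VHL-KO/AKI against VHL-KO and from 0 to 1 for the interaction. With the sex-linked level as covariate the counts were 0 in AKI against Control, 0 in VHL-KO/AKI against VHL-KO and 1 in VHL-KO/AKI against AKI. The 5 reversals all came from that covariate, with an adjusted p of 1: Mmp23 at 0.048 in AKI against Control, and, in VHL-KO/AKI against VHL-KO, Adamts18 at -0.22, Adamts4 at -0.18, Adamts5 at 0.57 and Mmp2 at 0.51. That fit has few arrays that break the link between injury and sex-linked signal. In it the median standard error over all genes rose from 0.101 to 0.433 in AKI against Control. In VHL-KO/AKI against VHL-KO it rose from 0.101 to 0.509. The standard errors of the reversed changes were 0.26 for Mmp23, 0.29 for Adamts18, 1.07 for Adamts4, 0.57 for Adamts5 and 0.63 for Mmp2. The cause of the reversals was not tested. For VHL-KO/AKI against AKI the count was 1 when the 2 compared groups were fitted alone, 8 with array weights and 6 with Control replicate 3 and AKI replicate 4 both left out, an alternative chosen after seeing the data. Fitting the compared groups alone also ended the calls of Timp3 and Mmp19 in AKI against Control and of Adamts4 in VHL-KO/AKI against VHL-KO. Array weights gave 3 genes for the interaction, and AKI replicate 4 had a weight of 0.218. With the replicate number as a block, 5 genes were called in VHL-KO/AKI against VHL-KO, 8 in AKI against Control and 2 in VHL-KO/AKI against AKI. The labels do not say whether equal numbers pair samples. Over 20 pairs with the same number, the correlation of deviations ran from -0.38 to 0.20, and it was above 0.1 in 3. No pairing was shown by these values, which cannot exclude one in so few arrays. The filter on dim genes kept 27 of the 44 genes and 14 of the 15 called ones, without Adamts18. The cause of these shifts was not tested, and fewer arrays were fitted where an array was left out.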
